A study of Mus musculus with 8 samples.

Results

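Fat cells leave a small but readable trace in RNA from whole muscle, and 10 genes of these cells were followed here: Adipoq, Plin1, Cidec, Lep, Retn, Cfd, Pck1, Fasn, Scd1 and Lpl. They were chosen by name, as genes that report fat lying between or attached to muscle fibres, and found by their mouse Ensembl identifiers among 23008 mouse genes. All 10 were present and all 10 passed the filter for testing, a mean of at least 10 normalised reads. A normalised read is a read count of a gene divided by 1 scaling factor per library.

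The RNA came from gastrocnemius, the large calf muscle, of wild-type C57BL/6J mice aged 7 to 12 weeks when injected (the treatment notes give 7 weeks), and was collected 11 weeks after an injection into the tail vein. Every sample had received AAV9, an adeno-associated virus that reaches muscle through the blood, carrying the GNDM construct, which the series presents as an epigenome editor for activating LAMA1. In 4 samples the construct carried the guide m31, which targets Lama1, and in the other 4 a control guide without a target. There was thus no group without virus or construct. The labels do not say that the libraries came from separate animals, so each p-value speaks only of the spread among these 8 libraries, which may be technical. They also do not name the promoter of the construct or say whether fat cells express it.

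White fat cells store triglyceride in a single large droplet wrapped in coat proteins, and secrete hormones, the adipokines, into the blood. They take up fatty acids freed from lipoproteins by lipoprotein lipase, make further fatty acids themselves, and need a glycerol backbone to join them into triglyceride. In skeletal muscle such cells lie between the fibre bundles and along the fascia, and some of these genes, lipoprotein lipase first among them, are also used by the muscle fibres.

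The libraries held 25157486 to 39210248 reads in mouse genes. The target itself checked the labels: the level of Lama1 was 216 ± 93.6 normalised reads under m31 against 1.61 ± 2.02 under the control guide (SD, n = 4 for each; limma adjusted p = 0.00372), and no m31 library fell into the control range. The fat cell markers Adipoq, Plin1, Cidec, Lep, Retn and Cfd were all above 0 in all 8 libraries, as were the muscle fibre markers Acta1 and Ckm. The scarcest of the 6, Lep, rested on 24 to 80 reads per library. Counting intervals given below cover counting error only.

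None of the 10 genes differed between the guides beyond the spread between libraries. The limma test on log2(normalised reads + 1) over 15960 genes gave adjusted p-values from 0.776 to 0.987 for the 10, and the unadjusted p-values were 0.0883 or more. DESeq2 and edgeR, run on whole reads recovered from the same values, called 0 of the 10 as well. Over all genes DESeq2 called 31 and edgeR 1. Among all genes tested with limma, 0.00627% were called at an adjusted p under 0.05, and that 1 gene was Lama1. The values of the 2 guides overlapped for each of the 10 genes, against 3.85% of all genes tested whose groups did not overlap. What the 10 genes did show was a strong difference between single libraries, shared by Adipoq, Plin1, Cidec, Retn and Cfd and running across both guides.

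The start sites of these genes are shown for the gene used as the reference below, Adipoq, for the adipokine gene closest to it in profile, Retn, and for the adipokine gene that departed from it, Lep. RefSeq (build GRCm38.p6) gave windows from 250 bases before to 50 after the start for 8 of the 10 genes. The 3 windows are chr16:23146286-23146585, plus strand, for Adipoq, chr8:3655520-3655819, plus strand, for Retn and chr6:29059971-29060270, plus strand, for Lep, written 5′ to 3′. Capitals mark matches, on either strand, to the CCAAT box (CCAAT or ATTGG) or to the palindrome bound by C/EBP factors (TTGCGCAA).
Adipoq: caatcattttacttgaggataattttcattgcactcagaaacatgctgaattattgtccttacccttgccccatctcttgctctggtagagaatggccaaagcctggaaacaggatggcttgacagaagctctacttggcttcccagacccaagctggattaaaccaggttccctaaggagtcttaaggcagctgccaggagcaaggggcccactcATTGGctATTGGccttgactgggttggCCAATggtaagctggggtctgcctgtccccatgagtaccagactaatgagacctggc
Retn: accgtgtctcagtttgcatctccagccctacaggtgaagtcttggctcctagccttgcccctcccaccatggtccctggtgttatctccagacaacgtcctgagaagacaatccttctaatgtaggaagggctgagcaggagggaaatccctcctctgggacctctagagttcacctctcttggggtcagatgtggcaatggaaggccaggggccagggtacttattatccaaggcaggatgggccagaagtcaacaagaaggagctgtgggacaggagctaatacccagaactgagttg
Lep: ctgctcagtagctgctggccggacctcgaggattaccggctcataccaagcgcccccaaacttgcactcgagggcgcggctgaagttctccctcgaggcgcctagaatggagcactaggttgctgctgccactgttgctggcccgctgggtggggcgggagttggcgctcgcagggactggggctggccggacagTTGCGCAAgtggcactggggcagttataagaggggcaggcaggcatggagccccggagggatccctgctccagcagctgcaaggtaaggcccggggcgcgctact

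Adipoq held 3 CCAAT boxes, beginning 34, 27 and 7 bases before the start site, a motif found in 37.4% of the 32851 RefSeq promoter windows of this length. Lep held the C/EBP palindrome, beginning 55 bases before the start, which 0.183% of the windows hold. Retn held none of the letters searched, which also included TATAAA (13.6% of windows), TGACGT, the core of a cAMP element (7.51%), its full palindrome TGACGTCA (1.79%, and each such match also holds the core), CACGTG (7.15%) and the direct-repeat PPAR site known as DR1 (0.0396%). Of the other windows, Fasn held 3 CCAAT boxes, of which a forward and a reverse one overlap, and Pck1 held 1 cAMP core, beginning 91 bases before the start. The windows of Plin1, Cidec and Cfd held no match. These matches describe letters in a short window and say nothing of which factor is bound.

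Adipoq encodes adiponectin, a hormone made almost only by fat cells that raises fatty acid use in muscle and liver. It lies on the plus strand of chromosome 16 (23146536 to 23158028 in GENCODE M21, build GRCm38). Its level was 244, 454, 355 and 327 normalised reads in m31 replicates 1 to 4 and 272, 371, 445 and 235 in control replicates 1 to 4. The highest and the second highest library thus carried different guides, as did the lowest pair. The means were 345 ± 86.5 under m31 and 331 ± 95.6 under the control guide (SD, n = 4 for each). On the log2 scale the difference was 0.07 ± 0.22 (SE), and its 95% interval reached from a 0.747-fold to a 1.48-fold level (limma adjusted p = 0.968).

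Retn encodes resistin, a small secreted protein of mouse fat cells that opposes insulin action (chromosome 8, plus strand, 3655770 to 3660110). It stood at 71.2, 185, 113 and 94.5 normalised reads under m31 and at 82.0, 124, 164 and 77.3 under the control guide. The order of the libraries followed that of Adipoq at the top, under m31 replicate 2 first and control replicate 3 next. The log2 difference between guides was 0.03 ± 0.31 (SE), the smallest of the 10, with an interval from 0.639-fold to 1.64-fold.

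Cfd encodes complement factor D, or adipsin, a serine protease of the alternative complement pathway that fat cells secrete (chromosome 10, plus strand, 79890853 to 79892655). Its values were 2064, 3818, 2413 and 2557 normalised reads under m31 and 1819.6, 2772, 3726 and 1828 under the control guide. Again m31 replicate 2 and control replicate 3 were highest, and control replicates 1 and 4 lowest. The guides differed by 0.13 ± 0.24 (SE) on the log2 scale, with an interval from 0.753-fold to 1.58-fold.

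Lep encodes leptin, the satiety hormone whose level in blood follows fat mass (chromosome 6, plus strand, 29060220 to 29073877). With m31 it had 22.8, 68.3, 72.8 and 52.9 normalised reads, and under the control guide 61.9, 75.4, 27.0 and 40.0. Control replicate 3, high for the other adipokines, was thus among the lowest for Lep. Its 24 reads gave an exact 95% Poisson interval of 17.3 to 40.1 normalised reads, while the 79 reads of control replicate 2 gave 59.7 to 93.9, and these intervals do not overlap. Between guides the log2 difference was 0.06 ± 0.40 (SE), with the widest interval of the adipokine genes, 0.568-fold to 1.92-fold.

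**Figure D1:**
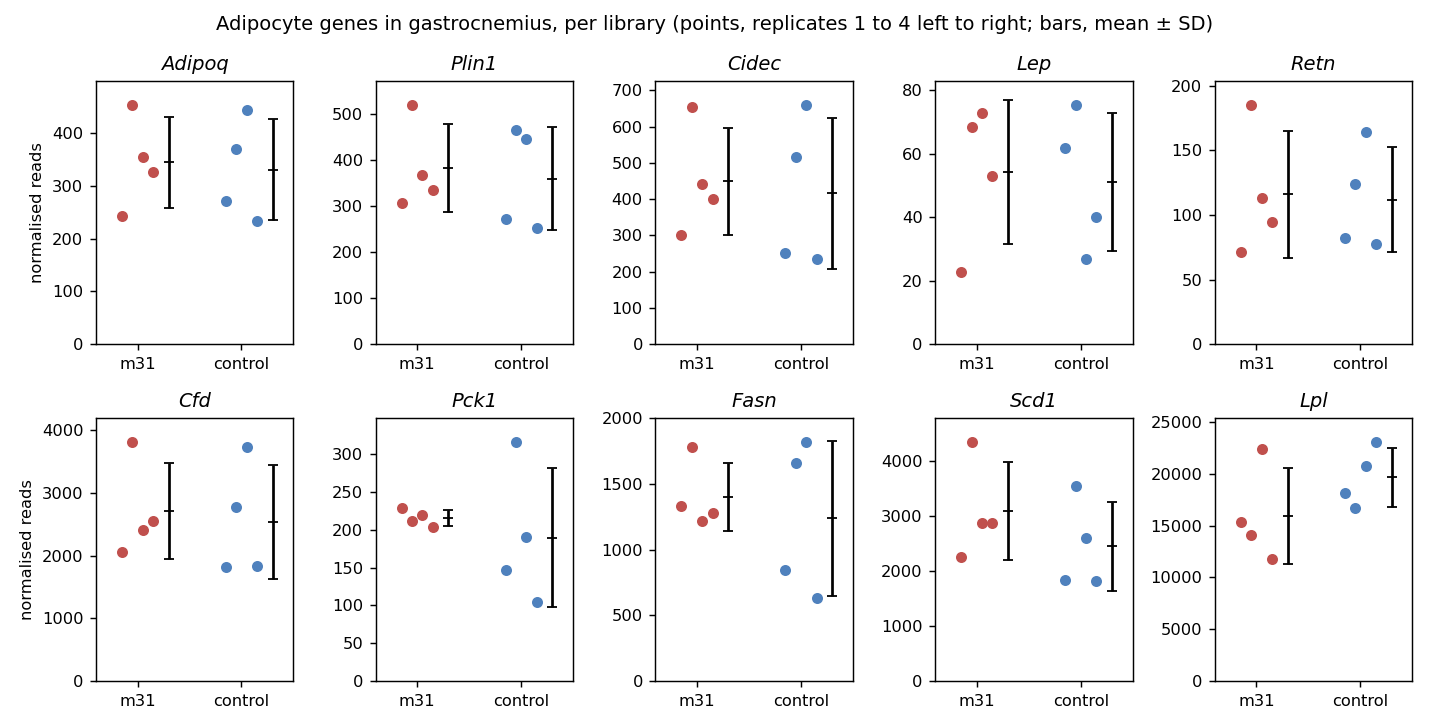
Normalised reads (vertical axes, starting at 0) of the 10 adipocyte genes, 1 panel per gene, in the 4 m31 libraries (red) and the 4 control libraries (blue), with the mean ± SD of each guide in black. The points of the guides overlap in each panel, for example 244 to 454 against 235 to 445 for Adipoq, and Pck1 is spread far less under m31 than under the control guide.

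The lipid droplet was represented by its coat protein perilipin 1 and by a protein that fuses droplets. Plin1, perilipin 1, guards the stored fat from lipases (chromosome 7, minus strand, 79720218 to 79732903). It had 306, 519, 368 and 335 normalised reads under m31 and 272, 465, 446 and 253 under the control guide, so that an m31 library was highest and control libraries were the lowest pair. The log2 difference was 0.11 ± 0.23 (SE). Cidec, the fat-specific protein that merges small droplets into a large one (chromosome 6, minus strand, 113424634 to 113435760), stood at 302, 653, 442 and 399.8 under m31 and at 252, 515, 659.7 and 236 under the control guide. It covered a 2.80-fold range over the libraries, wider than the 1.93-fold range of Adipoq, with the same 3 libraries highest. The guides differed by 0.20 ± 0.33 (SE) in log2 level, with an interval from 0.688-fold to 1.91-fold.

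Pck1 encodes the cytosolic phosphoenolpyruvate carboxykinase, which starts gluconeogenesis in liver and in fat supplies the glycerol backbone of triglyceride (chromosome 2, plus strand, 173153048 to 173159273). It was even under m31, at 229, 212, 219 and 204 normalised reads, and uneven under the control guide, at 146, 317, 189.9 and 104. The m31 values all lay inside the control range. The means were 216 ± 10.8 and 189 ± 91.9 (SD, n = 4 for each), a log2 difference of 0.31 ± 0.27 (SE, limma adjusted p = 0.855). The difference in spread was seen after the values were known and was not tested. Without control replicate 2 the estimate was 0.595, with an unadjusted limma p of 0.0104 and an adjusted p of 0.638, and without control replicate 4 it was 0.06, with an unadjusted limma p of 0.788.

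Fasn and Scd1 make fat. Fasn, fatty acid synthase, builds palmitate (chromosome 11, minus strand, 120805846 to 120824547) and had 1329, 1779.9, 1214 and 1276 normalised reads under m31. With the control guide it had 840.3, 1658, 1821 and 632, a range that enclosed all 4 m31 values. Scd1, stearoyl-CoA desaturase 1, puts the double bond into stearate and palmitate (chromosome 19, minus strand, 44394455 to 44407879). Its levels were 2266, 4359, 2873 and 2878 under m31 and 1845, 3547, 2598 and 1820.2 under the control guide. The Scd1 means, 3094 ± 891 and 2452 ± 814, made the largest positive estimate of the 10, 0.35 ± 0.23 (SE, limma adjusted p = 0.825), with an interval from 0.892-fold to 1.82-fold. For Fasn the estimate was 0.30 ± 0.30 (SE), and it ran from 0.02 without control replicate 4 to 0.53 without control replicate 3. Without control replicate 2, Scd1 stood at 0.546, with an unadjusted limma p of 0.0250 and an adjusted p of 0.664. It was 0.17 without m31 replicate 2 and 0.23 without control replicate 4. With replicate number as a block in the fit, the Scd1 estimate stayed at 0.35, with an unadjusted limma p of 0.0104 and an adjusted p of 0.883. In that fit it was the 1 gene of the 10 with an unadjusted p under 0.05.

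Lpl encodes lipoprotein lipase, which is anchored in capillaries and frees fatty acids from passing lipoproteins (chromosome 8, plus strand, 68880491 to 68907448). It was the 1 gene of the 10 with a negative estimate. Its values were 15385, 14102, 22436 and 11762 normalised reads under m31 and 18148, 16664, 20734 and 23099 under the control guide. Of the m31 libraries 3 lay under every control library, while m31 replicate 3 was above 3 of the 4. The means were 15921 ± 4595 and 19661 ± 2843 (SD, n = 4 for each), a log2 difference of -0.33 ± 0.18 (SE) that did not pass (limma adjusted p = 0.776), with an interval from 0.603-fold to 1.04-fold. Without m31 replicate 3 it was -0.51, with an unadjusted limma p of 0.00361 and an adjusted p of 0.746, and without m31 replicate 4 it was -0.20, with an unadjusted limma p of 0.249.

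**Figure D2:**
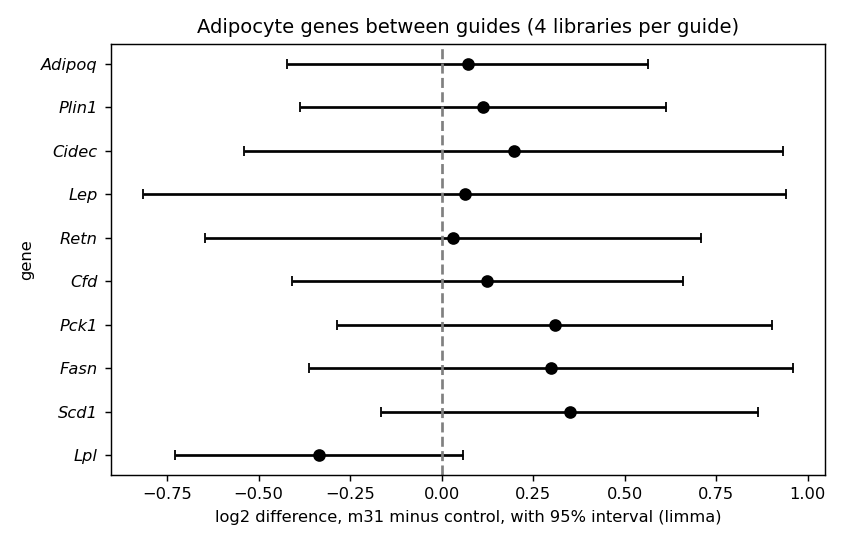
Log2 difference in level, m31 minus control, for the 10 adipocyte genes (horizontal axis; points, limma estimates; bars, 95% intervals; 4 libraries per guide). All intervals include 0; Lpl, at -0.33, has the 1 estimate below it.

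In all, 9 estimates were positive and 1 negative (51.3% of all genes tested had a positive one), with a median of 0.12 beside 0.01 over all genes tested. Most of these signs rest on single libraries. Leaving out m31 replicate 2 turned 6 of them, those of Adipoq, Plin1, Cidec, Lep, Retn and Cfd, to between -0.22 and -0.0017. Leaving out control replicate 4 turned the same 6 to between -0.12 and -0.0099, and leaving out control replicate 1 turned Adipoq, Plin1, Retn and Cfd to between -0.09 and -0.0017. The sign for Lep also turned without control replicate 3 (-0.20) or m31 replicate 3 (-0.12), and that of Retn under quantile normalisation (-0.025) and under recentring on library medians (-0.0040). An exact permutation test, two-sided, over all 70 arrangements of the libraries gave p = 0.2 to 0.886 for the 10 genes, where the smallest possible value is 0.0286.

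Compared per kilobase of annotated exon, the most abundant of the 10 was Cfd, at a mean of 2847 normalised reads per kilobase (1973.5 to 4141 over the 8 libraries). Lpl followed at 1698 (1123 to 2205) and overlapped it. Scd1 came next at 567 (372 to 891), clear of its neighbours on both sides. Adipoq at 245 (169.8 to 329) and Cidec at 233 (127 to 355) could not be ranked against each other. Fasn at 120.5, Plin1 at 79.7, Retn at 72.1 and Pck1 at 59.1 normalised reads per kilobase each overlapped the gene before it. Lep was lowest at 15.7 (6.80 to 22.5), under every library of Pck1 (30.3 to 92.4).

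The 10 genes varied more between libraries than most genes. The median ratio of the highest to the lowest library was 2.50 for the 10 and 1.57 for all genes tested. The SD of the log2 level over the 8 libraries had a median of 0.46 for the 10 and 0.22 for all genes. By this SD, Lep (0.65), Cidec (0.58) and Fasn (0.54) lay above 94.8, 91.9 and 90.1% of the genes tested, and Lpl (0.34) above 72.4%. In bulk RNA, fewer fat cells in a piece of muscle and less of a transcript in each fat cell cannot be told apart. For genes that muscle fibres also use, such as Lpl, the share from the fibres cannot be separated either.

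Adipoq, Plin1, Cidec, Retn and Cfd, a group of 5 picked out after their values were seen, shared their highest and lowest libraries, though not the exact order. In each of the 5, m31 replicate 2, control replicate 2 and control replicate 3 were the 3 highest libraries. In each, m31 replicate 1 and control replicates 1 and 4 were the 3 lowest, under m31 replicates 3 and 4 between. High and low libraries thus came from both guides. The Pearson correlation of log2 levels over the 8 libraries, given as a description, was 0.92 to 0.97 for the 10 pairs among these 5 genes.

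**Figure D3:**
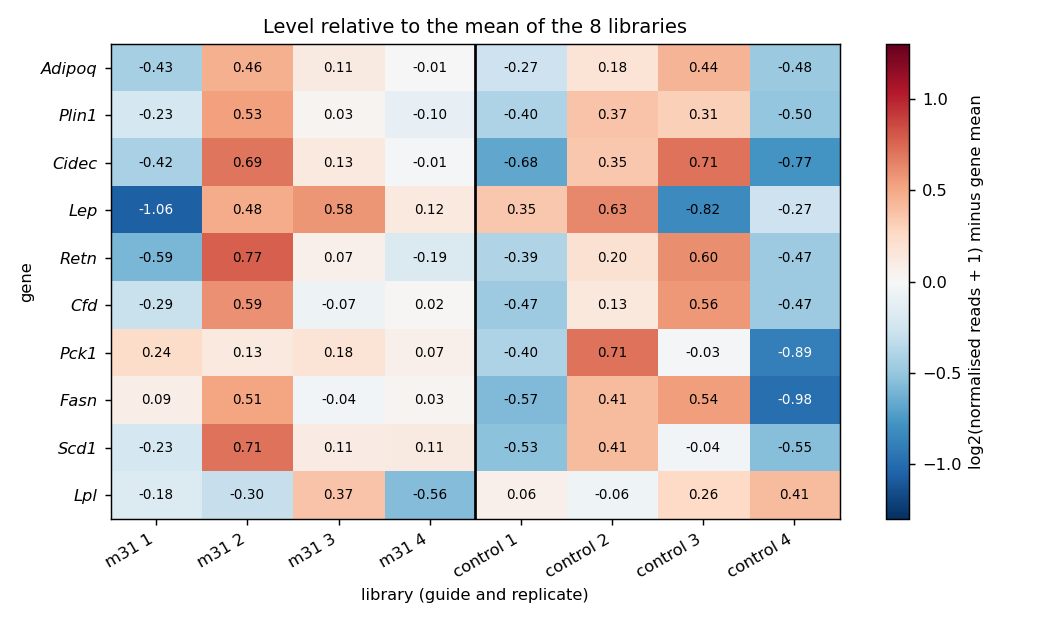
Log2(normalised reads + 1) of each adipocyte gene (rows) in each library (columns, m31 left and control right of the line), minus the gene's mean over the 8 libraries. Adipoq, Plin1, Cidec, Retn and Cfd are red in m31 replicate 2 and control replicates 2 and 3 and blue in m31 replicate 1 and control replicates 1 and 4, whereas Lep is blue in control replicate 3 (-0.82) and Lpl red in control replicate 4 (0.41).

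Ranked by likeness to Adipoq among the 15959 other genes tested, Retn came first (Pearson r = 0.97, Spearman rho = 0.98) and Cidec second (r = 0.97, rho = 0.95). Cfd was number 6 (r = 0.95) and Plin1 number 12 (r = 0.93), in a field where 25 genes had an r above 0.9. Without the 2 libraries farthest from the median of Adipoq, control replicate 4 and m31 replicate 1, the r of these 4 genes was 0.93 to 0.99 over the other 6 libraries. The fat-making enzymes were looser, with r = 0.82 for Fasn (number 107) and 0.81 for Scd1 (number 133), and Pck1 looser still at 0.52 (number 1642). Lep (r = 0.32, number 3782, and -0.34 without those 2 libraries) and Lpl (r = -0.15, number 9787) did not share the profile.

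The 10 genes outside the set with the highest r were Ostf1, Cdo1, Cyp2e1, Kazn, Mrap, Rbp4, Tubb4a, Hdac7, Vti1a and Fam168b, with r from 0.93 to 0.96. Picking the highest r among 15959 genes over only 8 libraries can by itself give values this high. Whether any of these genes reports fat cells was not tested. The 10 differ in how far they moved. Cyp2e1, a cytochrome P450, ran from 598 to 1633 normalised reads, and Cdo1, cysteine dioxygenase, from 124 to 295. Mrap, which encodes a partner of the melanocortin receptors, ran from 22.6 to 53.9 and Rbp4, the retinol carrier, from 29.4 to 53.9. Ostf1, in contrast, moved only between 791 and 879, and Vti1a between 696 and 848. None of the 10 passed between the guides, with limma adjusted p-values from 0.856 to 0.978.

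**Figure D4:**
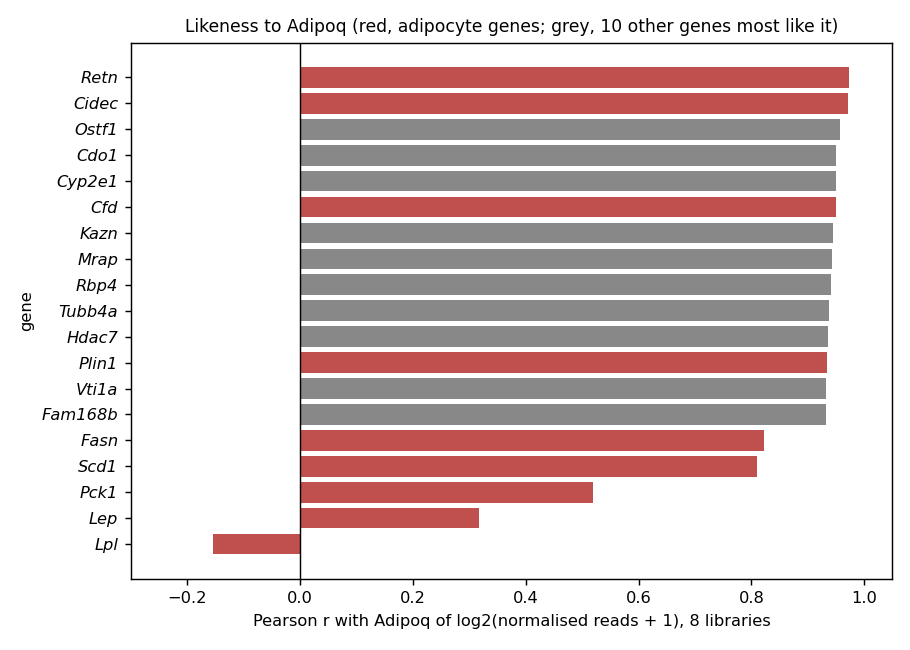
Pearson r with Adipoq over the 8 libraries (horizontal axis) for the 9 other adipocyte genes (red) and the 10 further genes most like Adipoq (grey), in order. Retn and Cidec stand at the top at 0.97, and Lep (0.32) and Lpl (-0.15) at the bottom.

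Set against Adipoq within each library, Plin1, Cfd, Retn and Cidec varied less than their levels did. The ratio of Plin1 to Adipoq ran from 1 to 1.25 and that of Cfd to Adipoq from 6.69 to 8.46 normalised reads per read, ranges of 1.25-fold and 1.26-fold where the levels ranged 2.05-fold and 2.10-fold. Retn per Adipoq read ranged 1.41-fold and Cidec 1.60-fold, with Cidec lowest, at 0.926, in control replicate 1. For Lep and Lpl the ratio ranged more widely than the level itself, 3.76-fold against 3.31-fold and 3.17-fold against 1.96-fold. Lpl per Adipoq read was 98.5 in control replicate 4 and 31.1 in m31 replicate 2.

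Summed over its 6 markers, the fat cell list ran from 3009 to 5697 normalised reads under m31 and from 2669 to 5468 under the control guide. Such a sum is not weighted, so the markers with the most reads dominate it. In the fat cell sum this was Cfd, at 1819.6 to 3818 normalised reads over the 8 libraries. Other cell types had other orders of libraries. All 6 macrophage markers had positive estimates, their sum was 2549 to 6207 under m31 and 1697 to 4563 under the control guide, and it was highest in m31 replicate 4 (6207) and control replicate 3 (4563). The 6 tendon markers, all with positive estimates, summed to 11872 to 28612 under m31 and 7250.3 to 14546 under the control guide, highest in m31 replicate 4, a library in the middle for the fat cell genes. The 4 markers of fibro-adipogenic progenitors, the stromal cells from which muscle fat cells arise, summed to 12875 to 20878 and 11518 to 19467, all with positive estimates, and followed the fat cell sum in part. They were high in control replicate 3 (19467) and m31 replicate 2 (17877), where the fat cell sum was highest, but also in m31 replicate 4 (20878), and lowest in control replicate 2 (11518), where the fat cell sum was the third highest (4322). The progenitor sum was mostly Dcn, at 8705 to 15835 normalised reads over the 8 libraries. The 5 red blood cell genes, all with negative estimates, summed to 8717 to 16064 and 8347 to 32824, with control replicate 2 far above the rest. Median log2 differences were 0.09 for fat cells, 0.75 for macrophages, 0.64 for tendon, 0.29 for progenitors and -0.46 for red blood cells. An unadjusted limma p under 0.05 was reached by 1 macrophage, 3 tendon and 2 progenitor markers, and by no red blood cell gene.

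The sums for endothelial cells (6840.4 to 8363 under m31 and 6976 to 8272 under the control guide, 4 markers), pericytes and smooth muscle (14899 to 19435 and 15816 to 18024, 6 markers) and muscle fibres (3555610 to 4143410 and 3405880 to 4503340, 6 markers) differed less between libraries. All 4 endothelial estimates were positive (median 0.06). For pericytes and smooth muscle 5 were positive and 1 negative (median 0.25), and 3 had an unadjusted limma p under 0.05. The negative one was Rgs5 (-0.01), which had the most reads in that sum. All 6 muscle fibre markers had negative estimates (median -0.07). The 5 Schwann cell markers, all with negative estimates (median -0.47, 3 with an unadjusted p under 0.05), summed to 5060.1 to 7544 under m31 and 5467 to 10108 under the control guide. Of the 49 cell type markers tested, 12 (24.5%) had an unadjusted p under 0.05, beside 6.79% of all genes tested, and none passed (smallest limma adjusted p = 0.647). These 12 were markers of progenitors, macrophages, tendon, Schwann cells, and pericytes and smooth muscle, and none was a fat cell marker. Markers of 1 cell type can vary together, so the 12 are not separate results. The lists were also chosen with earlier results of these data known, so setting their share beside that of all genes is not a test. The groups did not overlap for 1 of the 49, Pdgfrb of the pericyte and smooth muscle list, beside 3.85% of all genes tested. No marker was at 0 in any library. Of the 3 keratinocyte markers 1, Krt10, was analysed, at 38.5 to 61.9 normalised reads. The construct itself, GNDM, was read most in control replicate 3 and m31 replicate 2, where the fat cell sum was also highest. Normalised reads of GNDM were 12365, 24487, 15418 and 6157 in m31 replicates 1 to 4 and 11969, 13775, 37989 and 9802 in the controls. Below the top libraries the orders differed. For GNDM, m31 replicate 3 lay above control replicate 2, while its fat cell sum (3764) lay below that of control replicate 2 (4322). The lowest GNDM level was in m31 replicate 4, a library in the middle for the fat cell sum (3766). The part of these cells, or of the construct, in the levels of the adipocyte genes was not tested.

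**Figure D5:**
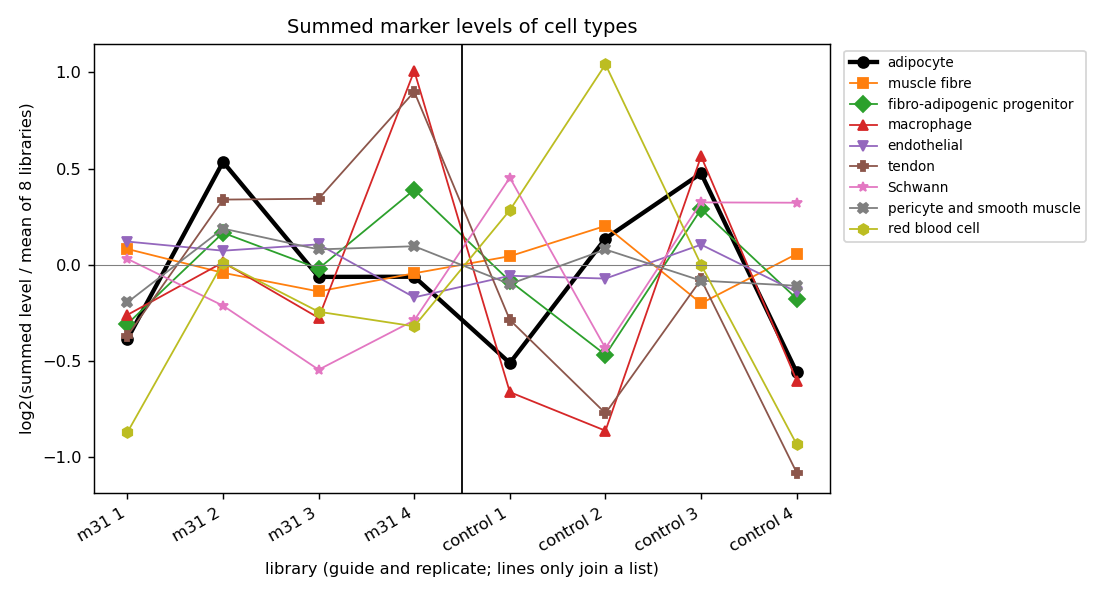
Summed level of the markers of each cell type in each library, as log2 of the ratio to the mean of the 8 libraries (vertical axis). Markers with more reads count more in a sum. The fat cell sum (black) peaks in m31 replicate 2 and control replicate 3, the macrophage and tendon sums in m31 replicate 4, and the red blood cell sum in control replicate 2.

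Genes with a role in fat cells were described with 9 lists holding 79 genes analysed, of which 77 passed the filter. In whole muscle their reads need not come from fat cells. Mrap and Rbp4 followed Adipoq (r = 0.94 for each), for example, while Cox7a1 (r = -0.40) and Fbp2 (r = -0.38) did not. None of the 77 passed between guides in either direction (smallest limma adjusted p = 0.647). An unadjusted p under 0.05 was reached by 6 of them (7.79%), beside 6.79% of all genes tested, and the groups did not overlap for 1 of the 77, a smaller share than the 3.85% of all genes tested. Their median log2 difference was 0.07.

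Among 8 regulators of fat cells, 6 had positive and 2 negative estimates (median 0.11). Pparg, the nuclear receptor at the head of fat cell formation, had 99.9 ± 12.9 normalised reads under m31 and 111 ± 38.2 under the control guide, and Cebpa, its partner in keeping the fat cell state, 349 ± 48.0 and 285 ± 47.9 (SD, n = 4 for each). Their r with Adipoq was 0.46 and 0.75. Ebf2, a transcription factor of brown and beige fat precursors, was the 1 gene whose groups did not overlap, at 182, 231, 167 and 232 under m31 and 145, 134, 151 and 132 under the control guide. Its log2 difference of 0.52 ± 0.14 (SE) did not pass over all genes (limma adjusted p = 0.647). Its relative Ebf1 had an estimate of 0.30 (limma adjusted p = 0.715) and Klf15, a regulator of metabolism in fat and muscle, one of -0.36.

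The droplet list, 10 genes with a median of 0.02, held 8 positive and 2 negative estimates. Plin4, a droplet coat protein, had 8915 ± 1295 normalised reads under m31 and 8693 ± 2531 under the control guide, far above Plin1 in reads, and an r with Adipoq of -0.16. Of the 10 other adipokine and fat cell genes (7 positive, 3 negative, median 0.11), Rarres2, the adipokine chemerin, had 220.0 ± 24.3 and 178 ± 21.8 normalised reads (log2 difference 0.31, limma adjusted p = 0.720). Trarg1, a partner of the insulin-responsive glucose carrier, had an estimate of 0.37. Of 7 genes of lipolysis (4 positive, 3 negative, median 0.07), Lipe, hormone-sensitive lipase, had 637 ± 37.9 and 606 ± 104 normalised reads and Pnpla2, the first triglyceride lipase, 7307 ± 981 and 6562 ± 844. G0s2, an inhibitor of Pnpla2, had 453 ± 122 and 315 ± 71.8 (log2 difference 0.51, limma adjusted p = 0.720).

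Of 18 genes of fatty acid and triglyceride synthesis, 12 had positive and 6 negative estimates (median 0.13). Srebf1, the transcription factor that switches on Fasn and Scd1 in lipogenic tissue, stood at 2614, 2735, 2088 and 2728 normalised reads under m31 and at 2130.1, 1994, 1745 and 1526 under the control guide. The lowest m31 value lay just under the highest control value, and the log2 difference of 0.46 ± 0.12 (SE) did not pass over all genes (limma adjusted p = 0.647). Its r with Adipoq was 0.16. Acaca, which makes malonyl-CoA for Fasn, had an estimate of 0.08, Acly, which supplies its acetyl-CoA, 0.15, and Dgat2, which closes the triglyceride, -0.04. Thrsp, a lipogenic gene of fat and liver, ran close to Adipoq (r = 0.89) with an estimate of 0.12.

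Lipoprotein lipase works with Gpihbp1, which carries it to the capillary wall, and is inactivated by Angptl4. Gpihbp1 had 657 ± 160 normalised reads under m31 and 737 ± 198 under the control guide. Angptl4 ranged more than any of the 10 adipocyte genes, at 430.2, 44.9, 102 and 131 under m31 and 28.5, 43.9, 183 and 93.3 under the control guide, so that m31 replicate 1 was the highest and control replicate 1 the lowest. Its log2 difference was 0.89 ± 0.67 (SE, limma adjusted p = 0.840). Of the fatty acid carriers, Cd36 had an estimate of -0.04 and Fabp4 of 0.05. Of the 9 genes of this list 8 were tested, 4 positive and 4 negative, with a median of 0.01. Angptl8 was under the filter, at 0 in 3 of the m31 libraries and at most 5.86.

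The receptors of adiponectin, which muscle fibres carry, had estimates near 0. Adipor1 had 10034 ± 755 normalised reads under m31 and 10227 ± 1025 under the control guide, and Adipor2 4224 ± 176 and 3972 ± 189. Among the 4 receptors, 2 estimates were positive and 2 negative (median 0.03), Lepr, the leptin receptor, at 0.32. The 5 partners of Pck1 in pyruvate and glycerol metabolism had a median of 0.26, with 4 positive and 1 negative estimate. Pck2, the mitochondrial form of the enzyme, had 213 ± 27.3 and 187 ± 29.8 normalised reads, and Pcx, pyruvate carboxylase, an estimate of 0.26 (limma adjusted p = 0.735). Of 10 genes of brown fat 9 were analysed and 8 tested, 3 positive and 5 negative, with a median of -0.07. The gene not analysed was Ucp1, and Elovl3, at 1.90 to 7.87 normalised reads, was under the filter. Cidea, a droplet protein of brown fat, had 5.39 to 21.8 normalised reads, and Prdm16, a regulator of brown fat identity, 133 ± 21.6 under m31 and 176 ± 16.1 under the control guide (log2 difference -0.41, limma adjusted p = 0.669).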

How the data were processed

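The deposited values are a signal: reads per gene that the authors had scaled by 1 size factor for each library. Tools listed in the submitters' processing notes are STAR and DESeq2 (no versions), and the build listed is the human GRCh38.p12, although every gene carries a mouse Ensembl ID. How reads were counted, whether by strand and on which annotation is not given in the sources used here. No annotated gene overlaps any of the 10 genes. RNA was prepared with an RNeasy kit and libraries with a NEBNext Ultra kit, per the labels' protocols. Group and replicate came from the titles. Of 11 value columns, 8 match a labelled library and 3 were not used. Of 23013 entries, 5 belong to the construct (0.0230 to 0.142% of reads) and stayed out of the tests. Symbols were found for 22979 genes.

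Whole reads were recovered by dividing by the value of 1 read: 100% of values were whole within 0.01 of a read. The test was limma 3.58.1 (R 4.3.3) on log2(value + 1) (intensity trend, 8 libraries, no covariate) for the 15960 genes with a mean of at least 10, adjusted by Benjamini-Hochberg over all of them, with a threshold of 0.05. A difference on this scale understates the change of low genes. The code was tested on simulated data. edgeR 4.0.16 on the recovered reads, added after seeing the data, called 1 of 16193 genes. Exon lengths came from GENCODE M21.

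The members, gene lists and tests were chosen with earlier results of these data known. Named beyond the 10 genes were Lama1, the 10 genes most like Adipoq, genes standing for a role and, of the up to 4 genes per list with the smallest p, those described. Thrsp, Angptl8, Cidea, Elovl3 and Rgs5 were added for their role or values after these were seen. No pair of libraries in a group agreed within sampling noise (chi-square per degree of freedom 14.4 to 59.2).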

Additional observations from a re-analysis of the deposited data

Results flagged for a closer look

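In 13 cases among 132 groups of 4 checked, 1 library lay far from the other 3 of its guide; chance gives this in about 1 group in 20. None of the 10 adipocyte genes was among them. Control replicate 3 was the library in 7: it was high for Acaca (982 normalised reads, others at most 642), Fabp3 (18137), Gk (52.8), Kcnk3 (97.8) and the summed macrophage markers (4563), and low for Adipor1 (8707) and Cox7a1 (4295). Control replicate 2 was high for Fbp2 (1187), Plin4 (12444) and the summed pericyte and smooth muscle markers (18024). With m31, replicate 1 was low for Cebpa (277), replicate 3 high for Dgat2 (2061) and replicate 4 high for the summed macrophage markers (6207).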

How the results depend on the processing

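None of the 10 adipocyte genes and none of the genes in the 9 lists passed the threshold under any of the 18 alternatives run, namely leaving out 1 library at a time, a replicate block, other minimum means (none, 50), pseudocounts (0.5, 5) or scalings (quantile, library medians), library weights, DESeq2 1.42.0 and edgeR. The smallest adjusted p of the 10 was 0.385, for Scd1. Over all genes, the count past the threshold was 1 to 2 with a library left out and 31 with DESeq2 on the recovered reads, which gave no adjusted p for 4047 genes; the cause was not tested. With each library left out, estimates that changed sign ran from -0.078 to 0.229 for Adipoq, -0.044 to 0.255 for Plin1, -0.028 to 0.465 for Cidec, -0.20 to 0.43 for Lep, -0.22 to 0.24 for Retn and -0.052 to 0.332 for Cfd. Outside these, the sign turned for Retn with quantile normalisation (-0.025) and recentring (-0.0040) and for Lep with library weights (-0.12). Estimates for the other 4 kept their sign in all 18 but not their size: with a library left out they ran from 0.062 to 0.595 for Pck1, 0.021 to 0.529 for Fasn, 0.171 to 0.546 for Scd1 and -0.51 to -0.20 for Lpl. Over all genes tested, libraries of the same replicate number deviated from their guide means with correlations of 0.05, -0.05, -0.13 and -0.18. These values cannot decide whether the numbers pair the samples. For Adipoq, Plin1, Cidec, Retn and Cfd, both libraries of replicate 1 were among the lowest and both of replicate 2 among the highest. Those of replicates 3 and 4 did not stand together in this way. With the replicate block 1 gene passed over all genes and 0 of the 10. Lep rests on the fewest reads.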
